A study of Mus musculus with 13 samples.

Results

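The genes described here are *Ms4a4b*, *Ms4a4c*, *Ms4a6b*, *Ms4a6c* and *Ms4a6d*, 5 of the 24417 genes counted in bulk RNA-seq of sorted mouse T cells. They were found by their symbols, which each match 1 entry in both count tables. The 5 genes were chosen by name with results of these data known, which may include the changes and levels given below, and the record of the choice does not say which of these values were used. So their levels and changes are given below as descriptions and the tests across all genes are quoted to place them. The data asked how *Foxp3*, the transcription factor that defines regulatory T (Treg) cells, and an inflamed environment shape the cells that express or ought to express it. *Foxp3*LSL is a reversible null allele, in which a Thy1.1 reporter and a STOP cassette between loxP sites block *Foxp3*, and cells that have switched on this allele without making Foxp3 are called Treg “wannabes”.

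All mice were C57BL/6, and all cells were TCRβ+CD4+ cells from spleen and lymph node. The first experiment used males dosed at day 14 after birth with 4-hydroxytamoxifen (4-OHT), a drug that switches on an inducible Cre, and analysed at day 21. Control Treg cells (3 libraries) came from healthy *Foxp3*DTR-GFP/y*Cd4*creERT2 mice, whose *Foxp3* gene is intact and carries a diphtheria toxin receptor and GFP. Rescued Treg cells (3 libraries) came from *Foxp3*LSL/y*Cd4*creERT2 mice, where the drug frees a *Cd4*-driven Cre enzyme to cut out the STOP cassette in cells that express *Cd4*. Treg “wannabes” (2 libraries) came from *Foxp3*LSL/y*Cd4*wt mice, which received 4-OHT too but lack the recombinase and stay ill. The second experiment used female mice aged 9-11 weeks given diphtheria toxin on 4 occasions, of which the earliest was 7 days and the latest 1 day ahead of analysis, and no 4-OHT. Resting “wannabes” (3 libraries) came from *Foxp3*LSL/WT*Cd4*wt mice, which keep their normal Treg cells because these carry no toxin receptor. Activated “wannabes” (2 libraries) came from *Foxp3*LSL/DTR*Cd4*wt mice, which lose theirs and become inflamed. Treg cells were sorted as Foxp3 reporter-positive and “wannabes” as reporter-negative Thy1.1+ cells.

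MS4A stands for membrane-spanning 4-domains, subfamily A, a family of small proteins that cross the cell membrane several times; some act beside receptors, and some have been described as chemoreceptors of olfactory neurons. The best known members are MS4A1 (CD20) of B cells and MS4A2, the beta chain of the IgE receptor of mast cells and basophils. T cells carry mainly the MS4A4 and MS4A6 branches. MS4A4B associates with GITR, the costimulatory receptor encoded by *Tnfrsf18*, and modulates T cell activation, whereas MS4A6D is known chiefly from macrophages.

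All 5 genes lie in 1 stretch of chromosome 19 of GRCm38, within 200080 bases (chr19:11404770-11604849, GENCODE M21), and all are protein coding. *Ms4a4c* lies at chr19:11404770-11427246, *Ms4a4b* at chr19:11443553-11467055, *Ms4a6c* at chr19:11469366-11482192 and *Ms4a6b* at chr19:11516512-11531256, all on the plus strand. *Ms4a6d* lies at chr19:11586604-11604849 on the minus strand. *Gm8369* lies between *Ms4a6c* and *Ms4a6b*, and *Ms4a4d* between *Ms4a6b* and *Ms4a6d*. The 2 Ms4a4 genes are close copies of each other: 622 of 678 coding bases (91.7%) were identical between *Ms4a4b* and *Ms4a4c*. *Ms4a6b* shared 85.8% of aligned coding bases with *Ms4a6c* and 81.2% with *Ms4a6d*, against 57.0% to 58.7% between the branches. Transcript stretches of 50 bases, the length of 1 read of a pair, were shared with another gene of the family at 2.24% of the positions of *Ms4a4b*, 8.19% of *Ms4a4c*, 3.44% of *Ms4a6b*, 5.85% of *Ms4a6c* and 2.31% of *Ms4a6d*. A read within such a stretch fits more than 1 gene unless its mate lies in sequence of 1 gene only, and how the counting treated such pairs is not given in the sources used here, so the low members beside an abundant copy (*Ms4a4c* beside *Ms4a4b*, *Ms4a6c* and *Ms4a6d* beside *Ms4a6b*) are uncertain to that extent.

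The promoters, 250 bases before to 50 bases after the start site, are shown because the copies within a branch differed in how far their transcripts changed while much of their start-site sequence is the same. RefSeq sequences on GRCm38.p6 were matched by symbol for 4 of the 5 genes, and *Ms4a6d* is named only. Capitals mark runs of at least 12 bases that are identical in an alignment of the 2 copies of the same branch; all 4 are read on the plus strand.
*Ms4a4b* (chr19:11443308-11443607): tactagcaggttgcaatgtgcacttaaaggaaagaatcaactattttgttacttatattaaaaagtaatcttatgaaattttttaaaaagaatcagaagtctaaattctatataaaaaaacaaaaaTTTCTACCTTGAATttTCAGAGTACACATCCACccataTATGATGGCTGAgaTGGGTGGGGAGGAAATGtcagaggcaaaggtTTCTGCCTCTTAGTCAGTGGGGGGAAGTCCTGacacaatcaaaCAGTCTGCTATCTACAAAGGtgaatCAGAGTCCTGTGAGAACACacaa
*Ms4a4c* (chr19:11407411-11407710): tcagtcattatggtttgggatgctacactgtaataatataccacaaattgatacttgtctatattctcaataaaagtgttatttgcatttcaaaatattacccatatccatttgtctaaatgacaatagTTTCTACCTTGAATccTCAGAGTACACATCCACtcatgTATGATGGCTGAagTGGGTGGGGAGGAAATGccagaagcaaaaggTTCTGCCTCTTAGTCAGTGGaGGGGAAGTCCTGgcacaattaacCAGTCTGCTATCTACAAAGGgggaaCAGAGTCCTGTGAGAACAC
*Ms4a6b* (chr19:11518309-11518608): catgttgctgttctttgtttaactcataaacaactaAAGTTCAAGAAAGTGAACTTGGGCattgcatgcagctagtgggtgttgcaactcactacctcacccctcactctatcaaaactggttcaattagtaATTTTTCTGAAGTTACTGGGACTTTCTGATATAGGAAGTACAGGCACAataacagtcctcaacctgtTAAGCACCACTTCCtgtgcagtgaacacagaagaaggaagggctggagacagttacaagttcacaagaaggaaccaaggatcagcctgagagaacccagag
*Ms4a6c* (chr19:11469118-11469417): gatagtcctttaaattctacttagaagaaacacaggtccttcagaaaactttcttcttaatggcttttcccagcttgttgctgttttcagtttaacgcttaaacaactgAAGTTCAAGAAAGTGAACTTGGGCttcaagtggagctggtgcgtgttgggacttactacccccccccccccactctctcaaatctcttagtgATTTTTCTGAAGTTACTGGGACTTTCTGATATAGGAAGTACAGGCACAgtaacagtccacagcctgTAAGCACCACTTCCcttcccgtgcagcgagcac
*Ms4a4b* and *Ms4a4c* were identical at 223 of 290 aligned bases (76.9%), with 8 such runs holding 131 bases, of which the longest had 20. *Ms4a6b* and *Ms4a6c* were identical at 187 of 225 aligned bases (83.1%), with 3 runs, the longest of 48 bases. Between branches the identity was 49.8% to 55.1%, with no run of that length. The windows were searched on both strands for 7 motifs. An AP-1 site (TGANTCA, in 7.81% of 32851 promoters of this length) was found in *Ms4a4b*, and a Runx site (TGTGGT, 16.8% of promoters) in *Ms4a4c*; no motif overlapped another. The letters of the interferon-stimulated response element (TTTC, any 2 bases, TTTC; 3.44% of promoters), the STAT site (TTCNNNGAA, 8.30%), the forkhead site (TGTTTAC, 3.65%), the Tcf/Lef site (CTTTGA, 16%) and the Ets site (CCGGAA, 14.9%) were not in these 4 windows.

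Between 25556783 and 36659638 reads were counted per library. *Foxp3* itself checks the labels. It was at 167 to 252 CPM (counts scaled to a common library size) in control Treg cells and at 865 to 1109.7 in rescued Treg cells, against 84.2 and 99.8 in male “wannabes”, 67.3 to 75.1 in resting and 52.8 and 58.2 in activated “wannabes”. Every Treg library thus lay above every “wannabe” library. The Treg groups carry different *Foxp3* alleles, so the gap between them (4.55-fold higher in rescued Treg cells) is no check of the labels. The counts do not separate transcript of the null allele from functional transcript. All 7 T cell markers were abundant in every library (*Cd3e* between 742 and 1192 CPM). In activated against resting “wannabes” *Cd28* (388 and 389 against 674 to 727 CPM; adjusted p = 0.000871) and *Cd3e* (907 and 947 against 1101 to 1192 CPM; adjusted p = 0.0320) fell. The 10 monocyte and macrophage markers, among them *Lyz2*, *Csf1r* and *C1qa*, summed to 1.38 to 10.9 CPM per library, with *Cd14*, *C1qb* or both at 0 counts in every library but resting replicate 3. The 7 B cell markers summed to 33.7 to 46.2 CPM in the male libraries, 10.6 to 13.1 CPM in resting and 25.9 and 23.3 CPM in activated “wannabes”. Of these, *Cd79b* rose on activation (7.53 to 8.79 against 20.3 to 21.9 CPM; adjusted p = 0.00193), while *Cd79a* was at 1.96 to 2.41 and 1.99 to 2.45 CPM. The 4 mast cell and basophil markers summed to 4.78 to 6.97 CPM in resting and 19.996 and 15.2 CPM in activated “wannabes”, where *Hdc* rose (adjusted p = 0.00322), *Cpa3* was at 1.27 to 1.58 against 2.13 to 3.71 CPM, and *Mcpt8* and *Fcer1a* were at 0. In bulk RNA, fewer cells with a transcript and less of it per cell cannot be told apart. The study describes the male libraries as biological replicates and counts 3 and 2 mice in the female groups, as many as there are libraries; no label ties a library to its mouse.

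Counts were scaled with edgeR's TMM method within each experiment and are given as CPM; levels of different genes are compared as CPM per kilobase of annotated exon. Read shares are given for depth only, since a long transcript yields more reads. Of the reads on the 5 genes, *Ms4a4b* took 48.2% to 62.1% in the 13 libraries and *Ms4a6b* 35.2% to 48.6%. *Ms4a4c* took 0.887% to 6.65%, *Ms4a6c* 0.828% to 2.31% and *Ms4a6d* 0.149% to 0.484%. Per kilobase, *Ms4a6b* stood at or above the 97.2 percentile of tested genes in every library and *Ms4a4b* at or above the 95.4 percentile. In control Treg cells the level per kilobase was 209 ± 6.56 for *Ms4a6b*, 152 ± 1.16 for *Ms4a4b*, 62.2 ± 29.4 for *Ms4a4c*, 18.8 ± 2.98 for *Ms4a6c* and 2.81 ± 0.932 for *Ms4a6d* (CPM per kilobase, mean ± SD, n = 3). The same order held in male, resting and activated “wannabes”. In rescued Treg cells *Ms4a6c* (11.96 ± 0.324) stood above *Ms4a4c* (7.97 ± 1.48, n = 3 each), with no overlap between the 3 libraries of each. The order in all 5 groups was the same when the length of the longest coding transcript was used instead, which is shorter than the joined exons, most of all in *Ms4a4b* (4750 against 8780 bases).

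**Figure D1:**
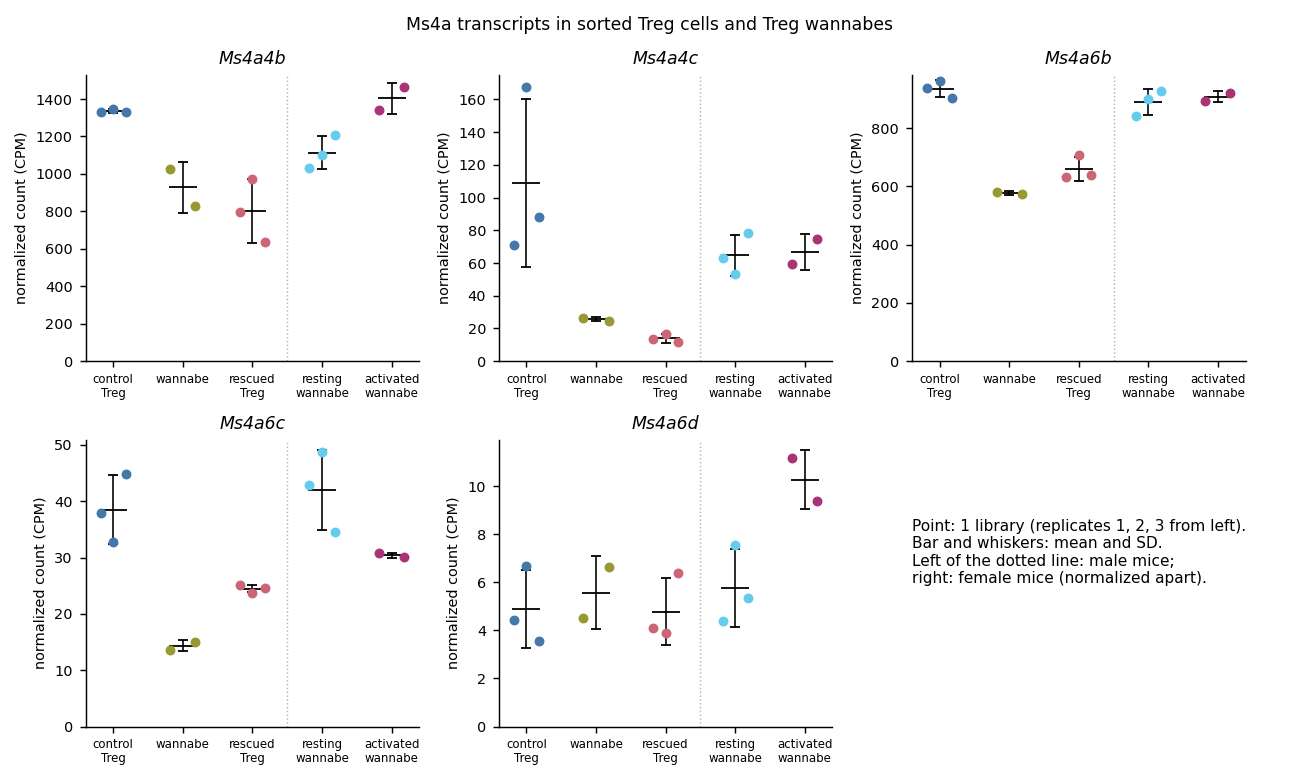
Normalized counts (CPM, linear axes from 0) of the 5 Ms4a genes in each library of the 5 groups; points are libraries, bars means and whiskers SD (n = 2 or 3). In males, *Ms4a4b*, *Ms4a4c*, *Ms4a6b* and *Ms4a6c* are highest in the 3 control Treg libraries, and *Ms4a6d* overlaps between all male groups.

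Rescued and control Treg cells both make Foxp3 and differ in the environment they were in, in the time since Foxp3 was switched on and in genotype, which cannot be told apart here. In rescued Treg cells, 3 of the 5 genes fell at an adjusted p under 0.05 over all 14925 genes tested (edgeR's quasi-likelihood test, Benjamini-Hochberg), and none rose. Over all genes tested 2.30% were called, 0.864% lower and 1.43% higher. In 4 of the 5 the 3 rescued libraries lay below the 3 control libraries, as 11.6% of all genes tested did (12.6% lay above, 24.2% in either direction). The median log2 fold change was -0.65 over the 5 genes and -0.03 over all genes.

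*Ms4a4c* moved the farthest. It was at 70.9, 167 and 88.3 CPM in control Treg replicates 1, 2 and 3 and at 13.4, 16.8 and 11.7 CPM in the rescued replicates. The lowest control library was above the highest rescued library by a wide margin, and control replicate 2 stood far above the other 2. The fitted change was -2.96 ± 0.32 (log2, SE; adjusted p = 0.00151), 7.80-fold lower. Without control replicate 2 it was -2.51 (adjusted p = 0.00408). Its copy *Ms4a4b* was at 1329.7, 1347 and 1329.7 CPM in control and at 798, 973 and 636 CPM in rescued Treg cells. The control libraries were nearly equal and the rescued libraries spread out below them, with a change of -0.73 ± 0.16 (adjusted p = 0.0375), 1.66-fold lower. Within a library, *Ms4a4c* had 5.33, 12.4 and 6.64 reads per 100 reads of *Ms4a4b* in control Treg cells and 1.68, 1.73 and 1.84 in rescued Treg cells. This ratio needs no scaling between libraries and shows that the copies did not change by the same factor.

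*Ms4a6b* was at 939, 962 and 904 CPM in control and 634, 709 and 641 CPM in rescued Treg cells. The groups were apart by more than the spread within either, and the change was -0.50 ± 0.11 (adjusted p = 0.0493), just under the threshold. It was not called with DESeq2's size factors (adjusted p = 0.0562) or with no filter on low counts (0.0723). *Ms4a6c* was at 37.8, 32.8 and 44.9 CPM in control and 25.1, 23.8 and 24.7 CPM in rescued Treg cells, again without overlap. Its change of -0.65 ± 0.22 did not pass edgeR's test (adjusted p = 0.157) but did pass DESeq2's (-0.63, adjusted p = 0.0327). DESeq2 called 4 of the 5 genes here, and over all genes it also called more than edgeR, as given in the last section. The reads of *Ms4a6c* per 100 reads of *Ms4a6b* overlapped between the groups (3.41 to 4.97 in control, 3.36 to 3.96 in rescued). *Ms4a6d*, at 3.54 to 6.67 CPM in control and 3.87 to 6.38 CPM in rescued Treg cells, overlapped fully, with a change of -0.03 and a 95% interval from -1.001 to 0.946. The changes of *Ms4a4b* and *Ms4a6b* kept their direction whichever male library was dropped (-0.88 to -0.59 and -0.54 to -0.47), but not always their call. When any 1 control or rescued library was dropped, *Ms4a4b* stayed called only without rescued replicate 2 (adjusted p = 0.0332, against 0.0851 to 0.139 for the others) and *Ms4a6b* was never called (0.101 to 0.191); both were called when either “wannabe” library was dropped, while *Ms4a4c* was called whichever male library was dropped.

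**Figure D2:**
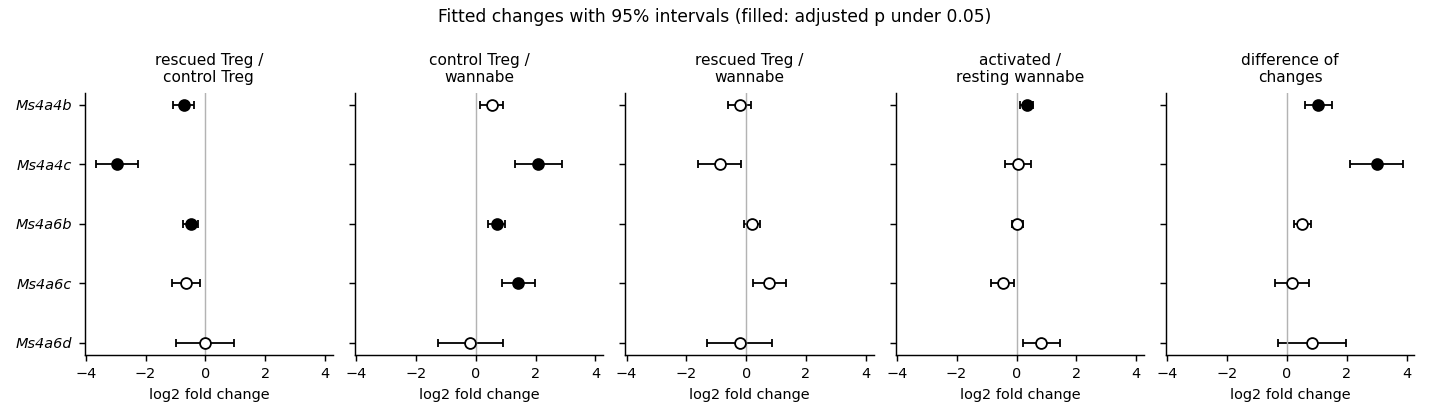
Fitted log2 fold changes with 95% intervals for the 5 Ms4a genes (rows) in 4 comparisons and in the difference of changes between the experiments (columns); filled points passed an adjusted p under 0.05. *Ms4a4c* lies farthest from 0 in the columns of rescued against control Treg cells (-2.96), control Treg cells against “wannabes” (2.08) and the difference of changes (3.00).

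Male “wannabes” lack Foxp3 and come from ill mice, whereas control Treg cells have Foxp3 and come from healthy ones. The 2 groups also differ in genotype at *Foxp3* and at *Cd4* (*Cd4*wt against *Cd4*creERT2). These differences cannot be told apart. In control Treg cells 3 of the 5 genes were called higher than in “wannabes” (16.2% of all genes tested were called, 9.92% higher and 6.27% lower), and 4 of the 5 were higher without overlap (25.4% of all genes were, 20.7% were lower and 46.1% either). This comparison shares its control libraries with the one above. *Ms4a4c* was at 26.6 and 24.9 CPM in the “wannabes”, below every control library and above every rescued library. It was 4.23-fold higher in control Treg cells than in “wannabes” (2.08 ± 0.36 on the log2 scale, adjusted p = 0.00354). *Ms4a6c* was at 13.7 and 15.005 CPM in “wannabes”, the lowest of the 5 groups, and was 2.69-fold higher in control Treg cells (1.43 ± 0.25, adjusted p = 0.00411). *Ms4a6b* was at 581 and 574 CPM in “wannabes”, so close that the SD was 5.34, and was 1.62-fold higher in control Treg cells (0.70 ± 0.13, adjusted p = 0.00529). *Ms4a4b* was at 1025 and 831 CPM in “wannabes”, also below the control libraries, but its difference of 0.53 ± 0.18 did not pass the test (adjusted p = 0.0699). *Ms4a6d* was at 4.50 and 6.63 CPM in “wannabes” and overlapped with the control libraries. Markers also differed between these groups: *Cd4* (390 to 437 CPM in control Treg cells against 967 to 1371 in “wannabes”), *Cd28* (403 to 481 against 255 to 318), the myeloid integrin gene *Itgam* (3.28 to 10.4 against 0.0859 to 0.886) and the NK cell gene *Klrb1c* (0.417 to 1.32 against 4.61 to 6.83) were called (adjusted p = 0.000456, 0.0178, 0.0256 and 0.0263). *Cd4* was also lower in rescued Treg cells, likewise *Cd4*creERT2, than in “wannabes” (444 to 512 CPM, edgeR adjusted p = 0.000589). It was at 854 to 957 CPM in the female groups, which are *Cd4*wt. DESeq2 but not edgeR also called *Hdc* (0.229 to 2.76 in control against 7.19 to 15.9 CPM in “wannabes”, adjusted p = 0.0103). The same held for *Xcr1* (0.115 to 1.86 against 3.02 to 6.30 CPM, adjusted p = 0.0409). The 4 CD8 T and NK cell markers summed to 13.5 to 25.8 CPM in control Treg cells, 22.8 and 34.6 CPM in “wannabes” and 20.7 to 26.4 CPM in rescued Treg cells; between the Treg groups edgeR called 0 of the 4 (2 at an unadjusted p under 0.05) and DESeq2 called 2. Their part in the Ms4a levels was not tested.

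Rescued Treg cells and “wannabes” both come from male *Foxp3*LSL mice and differ in *Cd4* genotype and in whether Cre restored Foxp3, and with it in the state of the mice, which cannot be told apart. None of the 5 genes was called between them by edgeR's quasi-likelihood test, which called 14.1% of all genes tested, 10.0% higher and 4.06% lower. At an unadjusted p under 0.05 there were 2, in opposite directions, and the share of all genes under that unadjusted p is not given here. DESeq2 called these 2 genes, and over all genes it also called more than edgeR, as given in the last section. *Ms4a6c* was higher in rescued Treg cells without overlap (0.77 ± 0.25, adjusted p = 0.0622), and *Ms4a4c* was lower without overlap (-0.88 ± 0.33, adjusted p = 0.103). *Ms4a6b* was also higher in each rescued library than in each “wannabe” library, by 0.19 ± 0.13 (adjusted p = 0.354), so 2 genes were higher and 1 lower without overlap (22.0% and 20.7% of all genes, 42.7% in either direction). *Ms4a4b* (-0.21, 95% interval -0.60 to 0.18) and *Ms4a6d* (-0.22, -1.30 to 0.87) overlapped. By their means the male groups stood in the order control Treg, “wannabe”, rescued Treg for *Ms4a4c* and *Ms4a4b*, and control Treg, rescued Treg, “wannabe” for *Ms4a6b* and *Ms4a6c*. In none of these 4 genes did edgeR tell the lower pair of groups apart, and for *Ms4a6d* no groups differed beyond their spread.

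**Figure D3:**
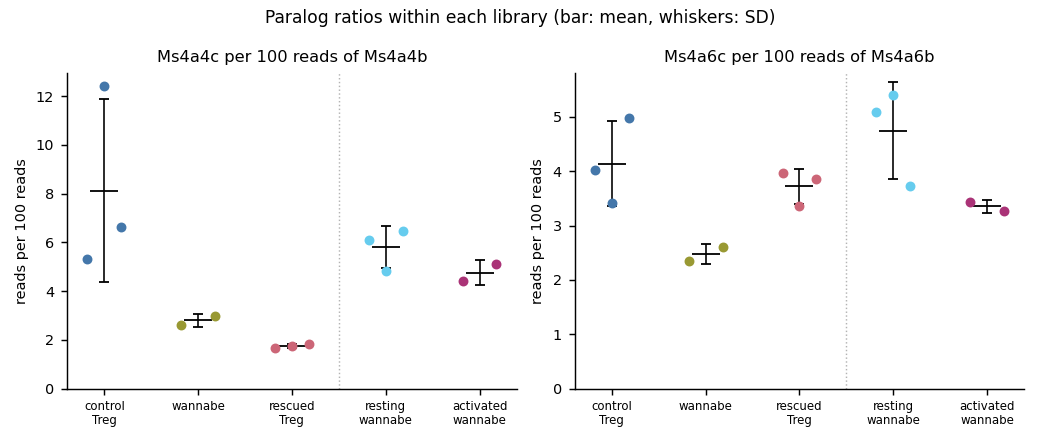
Reads of the less abundant copy per 100 reads of the abundant copy in each library, *Ms4a4c* to *Ms4a4b* on the left and *Ms4a6c* to *Ms4a6b* on the right (linear axes from 0; bars means, whiskers SD, n = 2 or 3). The ratio of the Ms4a4 copies is lowest in rescued Treg cells (1.68 to 1.84) and that of the Ms4a6 copies in male “wannabes” (2.35 and 2.61).

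In the female mice, activated and resting “wannabes” both lack Foxp3 and differ in whether the mice kept their Treg cells. Only *Ms4a4b* was called, and it rose: 1 of 5 genes, against 22.5% of the 13166 genes tested that were called, 11.3% higher and 11.2% lower. It was at 1031, 1101 and 1207 CPM in resting and at 1344 and 1463 CPM in activated “wannabes”, without overlap. The change was 0.33 ± 0.09 (adjusted p = 0.0402), 1.26-fold. It was no longer called without resting replicate 1 (adjusted p = 0.0842), resting replicate 2 (0.0698), activated replicate 1 (0.126) or activated replicate 2 (0.250). *Tnfrsf18*, which encodes the partner GITR, rose by 1.07 ± 0.08 (adjusted p = 0.000624) in the same comparison, from 177 to 197 CPM in resting to 377 and 408 CPM in activated “wannabes”, and differed by 0.10 ± 0.21 between rescued and control Treg cells (adjusted p = 0.895).

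*Ms4a4c* did not separate the female groups: it was at 62.8, 53.3 and 78.1 CPM in resting and 59.2 and 74.7 CPM in activated “wannabes” (0.05 ± 0.18, adjusted p = 0.870). *Ms4a6b* was at 841, 901 and 927 CPM in resting and 894 and 922 CPM in activated “wannabes” (0.03, 95% interval -0.15 to 0.20). *Ms4a6c* was lower in activated “wannabes” without overlap, at 30.8 and 30.1 against 42.8, 48.7 and 34.6 CPM, but its change of -0.47 ± 0.16 did not pass edgeR's test (adjusted p = 0.0780; DESeq2 0.0429). *Ms4a6d* reached its highest level of the 5 groups in activated “wannabes”, at 11.1 and 9.39 CPM against 4.39, 7.55 and 5.36 CPM in resting “wannabes”. The groups did not overlap, and the change of 0.83 ± 0.26 did not pass edgeR's test (adjusted p = 0.0644; DESeq2 0.0269). Thus 2 of the 5 genes were higher and 1 lower without overlap, as were 27.9% and 28.6% of all genes (56.5% in either direction). The monocyte and macrophage markers summed to 1.52, 4.67 and 4.90 CPM in resting and to 9.74 and 6.24 CPM in activated “wannabes”. At or under 3 counts were 3 to 6 of the 10 markers in resting and 3 of 10 in each activated library. All 6 markers that were tested had a higher fitted level in activated “wannabes” (median log2 change 1.38). *C1qb* was at 0 to 8 reads in resting and 31 to 32 in activated libraries, and *Lyz2* at 14 to 43 and 55 to 74. *Cd14*, not tested, was at 0 to 4 reads in resting and 0 in activated libraries. Of the 6 of these markers that were tested edgeR called 0 (2 at an unadjusted p under 0.05), and DESeq2 called 0. Their part in the level of *Ms4a6d* was not tested.

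The change of “wannabes” on activation was set against the change of Treg cells between rescued and control mice in 1 fit of the 13 libraries. The 2 Ms4a4 genes were called different (2 of 5 genes higher, against 0.730% of 15201 genes called higher, 0.803% lower and 1.53% in all). For *Ms4a4c* the difference of the log2 changes was 3.00 ± 0.41 (adjusted p = 0.00314) and for *Ms4a4b* 1.06 ± 0.20 (adjusted p = 0.0205). *Ms4a4c* was called whichever library was left out, and *Ms4a4b* was not without control replicate 2 (adjusted p = 0.0509) or 3 (0.0585), resting replicate 1 (0.0582) or 2 (0.0589), or activated replicate 1 (0.0909) or 2 (0.159). *Ms4a6b* (0.52 ± 0.13, adjusted p = 0.0824), *Ms4a6c* (0.17 ± 0.27) and *Ms4a6d* (0.84 ± 0.52) were not called by edgeR; DESeq2 called *Ms4a6b* (0.53, adjusted p = 0.00354). The experiments differ in sex, age, agent and genotype as well as in the presence of Foxp3, and these cannot be told apart.

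Genes of the type I interferon response stood at different levels in the same libraries. The 23 genes of a list of known interferon targets (*Isg15*, *Ifit1*, *Mx1*, *Usp18* and others) had a mean log2 CPM of 5.86, 7.30 and 6.16 in control Treg replicates 1 to 3, 5.02 and 5.61 in “wannabes” and 4.64, 4.99 and 5.02 in rescued Treg cells. Control replicate 2, in which *Ms4a4c* was highest, was also the highest of all libraries for these genes. In rescued against control Treg cells 11 of the 23 were called lower and none higher (0.864% and 1.43% of all genes), with a median of -1.21, and without control replicate 2 there were 5, with a median of -0.94. Dropping control replicate 1 gave 12 and control replicate 3 gave 7, dropping rescued replicate 1, 2 or 3 gave 5, 4 and 4, and dropping either “wannabe” library gave 14. In control Treg cells against “wannabes” 9 were called higher (9.92% of all genes; median 1.09), 4 without control replicate 2, 2 without “wannabe” replicate 1 and 3 without “wannabe” replicate 2. In rescued Treg cells against “wannabes” 2 were called lower (4.06% of all genes; median -0.35), and 0 to 3 when a library was dropped. In activated against resting “wannabes” 4 of the 23 were called higher and none lower (median 0.39), where 11.3% of all genes were called higher, so the count is near that share. Their mean log2 CPM was 5.55 to 6.21 in resting and 6.07 and 6.28 in activated libraries. None was called when activated replicate 1 or 2 was dropped, and 13 were when resting replicate 2 was. In the difference of changes 8 of 23 were called higher (median 2.00; 0.730% of all genes), 5 without control replicate 2 (median 1.33), none without activated replicate 2, and 1 to 11 without any other library. The part of these genes' common level in that of *Ms4a4c* was not tested.

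**Figure D4:**
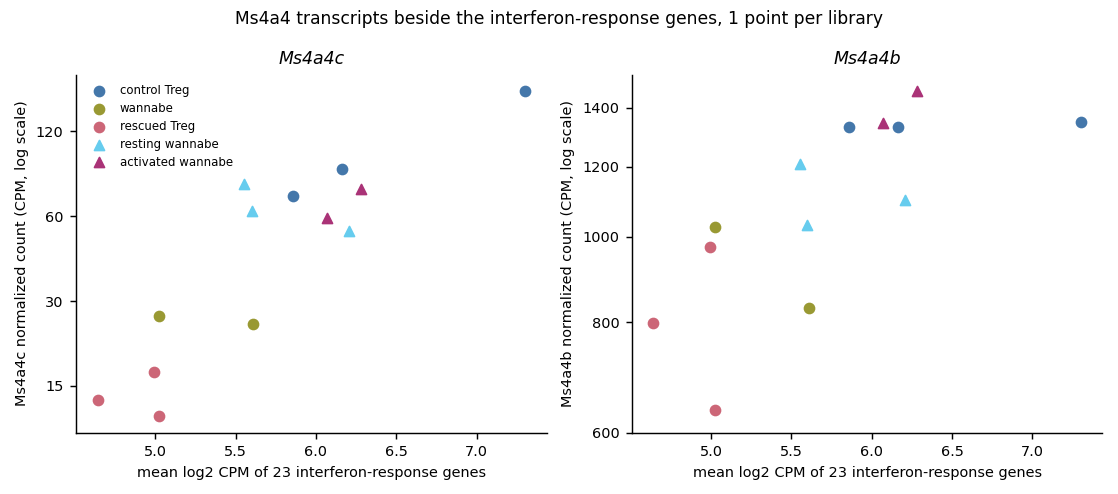
Normalized counts (CPM, log axes) of *Ms4a4c* (left) and *Ms4a4b* (right) against the mean log2 CPM of 23 interferon-response genes, with 1 point per library, circles for male and triangles for female mice. The 3 rescued Treg libraries lie lowest for *Ms4a4c* (11.7 to 16.8 CPM) with interferon means of 4.64 to 5.02, and control Treg replicate 2 lies highest on both axes of the left plot (167 CPM, 7.30).

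The genes whose levels followed each Ms4a gene most closely were taken by Pearson's r of log2 CPM over the 13 libraries, after each experiment's own mean was subtracted, among 12972 genes tested in both experiments. These r values describe libraries of 5 groups that share depth and scaling. *Ms4a4c* was closest to *Trim34a* (0.96), *Usp18* (0.95) and *Ifi208* (0.95), of which *Usp18* is on the interferon list; within the 5 female libraries alone these were 0.56, -0.11 and 0.56. *Ms4a4b* was closest to *Capn3* (0.92), *Decr1* (0.91) and *Cd96* (0.90), and *Ms4a6b* to *Rel* (0.96), *Ccdc109b* (0.94) and *Sp100* (0.94), where *Rel* reached 0.99 among males and 0.12 among females. *Ms4a6c* was closest to *Ldlrad4* (0.96), *Snx14* (0.94) and *Fam162a* (0.94), and *Ms4a6d* to *Sugp1* (0.87), *Il18bp* (0.83) and *Nprl3* (0.83). Among the Ms4a genes themselves, r was 0.86 between *Ms4a4b* and *Ms4a4c*, 0.84 between *Ms4a4c* and *Ms4a6b*, 0.80 between *Ms4a6b* and *Ms4a6c* and 0.78 between *Ms4a4b* and *Ms4a6b*, and with *Ms4a6d* it lay between -0.34 and 0.01. These values differed by experiment. Over the female libraries alone the first 2 were 0.44 and 0.47, against 0.91 and 0.84 over the male ones, and *Ms4a6d* had r of 0.78 with *Ms4a4b* and 0.46 with *Ms4a6b*, against -0.32 and -0.17. Between *Ms4a6c* and *Ms4a4c* r was 0.51 and between *Ms4a6c* and *Ms4a4b* 0.37. Over the 5 female libraries alone, *Ms4a6c* had r of -0.48 with *Ms4a6b*, -0.62 with *Ms4a4c* and -0.89 with *Ms4a4b*, against 0.89, 0.58 and 0.56 over the 8 male ones.

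The tables hold 14 other genes of the family, and 9 of them were too low to be tested in either experiment. *Ms4a1*, the CD20 gene of B cells, had at most 12 reads in any library, *Ms4a2* at most 13 and *Ms4a7*, a macrophage gene, at most 5. *Ms4a4a* (1 to 58 reads) and *Ms4a4d* (27 to 168 reads), neighbours of the genes described, were tested and not called in any comparison; *Ms4a4d* was at 2.99 CPM in both activated libraries against 4.68 to 5.81 CPM in resting ones (-0.76 ± 0.23, adjusted p = 0.0602). *Ms4a8a* had at most 18 reads. *Tmem176a* and *Tmem176b* on chromosome 6 encode CD20-like proteins of the same superfamily and have been described in dendritic cells and in T cells of the type 17 kind. Both fell in activated “wannabes”. *Tmem176a* went from 102, 180 and 43.2 CPM in resting to 11.7 and 12.5 CPM in activated libraries (-3.16 ± 0.59, adjusted p = 0.0135), and *Tmem176b* from 135, 244 and 59.4 to 19.4 and 18.8 CPM (-2.93 ± 0.58, adjusted p = 0.0160). The resting libraries spread widely, yet all lay above both activated ones, and the calls were lost without either activated library (adjusted p 0.106 to 0.121). The 5 dendritic cell markers summed to 3.30 to 4.40 CPM in resting and 5.92 and 8.04 CPM in activated libraries. Among males they summed to 0.863 to 1.93 CPM in control Treg cells, 1.94 to 3.55 CPM in rescued Treg cells and 7.36 and 4.20 CPM in “wannabes”. The part of dendritic cells in the Tmem176 levels was not tested. In males *Tmem176b* was lower in control (-1.16 ± 0.34, adjusted p = 0.0377) and rescued (-1.13 ± 0.34, adjusted p = 0.0465) Treg cells than in “wannabes”, at 6.57 to 9.67 and 6.97 to 10.6 against 19.3 and 18.4 CPM; when each male library was dropped in turn, the first call was lost in 6 of 8 fits and the second in 8 of 8.

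**Figure D5:**
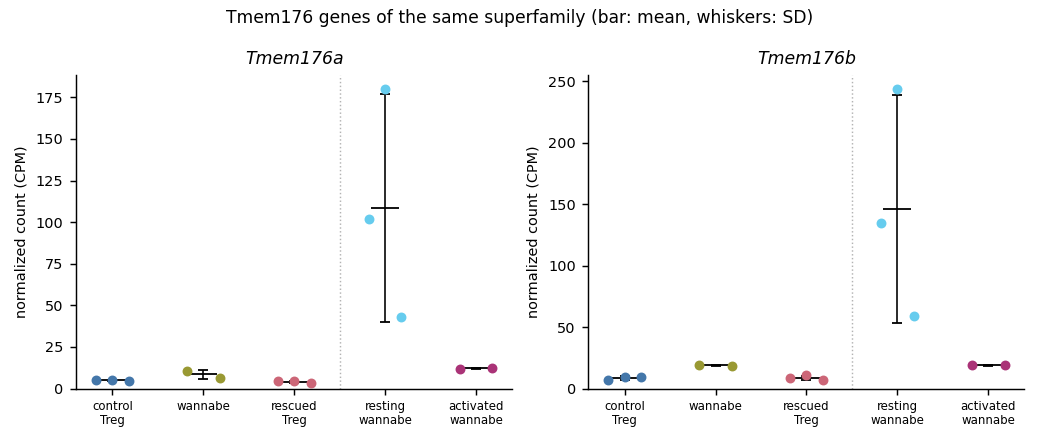
Normalized counts (CPM, linear axes from 0) of *Tmem176a* and *Tmem176b* in each library of the 5 groups; bars are means and whiskers SD (n = 2 or 3). The 3 resting “wannabe” libraries spread from 43.2 to 180 CPM and from 59.4 to 244 CPM, and every other library lies at or below 19.4 CPM.

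Within 300 kb of the 5 genes the tables hold 22 other genes, 8 of the family and 14 not. Of the latter, 5 were tested in each experiment. EdgeR and DESeq2 each called none of them between the male groups (1 had an unadjusted p under 0.05 in rescued against control Treg cells), and both called 2 in activated against resting “wannabes”, where 22.5% of all genes were called and 11.3% higher. *Gm8369*, a protein-coding gene 3746 bases from *Ms4a6c*, rose by 0.39 (adjusted p = 0.0398) and *Mrpl16*, a mitochondrial ribosomal protein gene, by 0.38 (adjusted p = 0.0498). In rescued against control Treg cells *Gm8369* had a change of -0.93 (adjusted p = 0.194).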

How the data were processed

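RNA of the sorted cells was amplified and sequenced in read pairs. The authors aligned the reads with STAR 2.7.3a to GRCm38 and deposited whole-number counts per gene, 1 table per experiment; the annotation and the strand setting are not given in the sources used here. The 4 entries without a gene name (at most 0.00841% of a library's counts) were left out.

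The counts were analysed with edgeR 4.0.16 (TMM scaling, filterByExpr, quasi-likelihood test, Benjamini-Hochberg adjustment, threshold 0.05). The 3 male groups were fitted together, the female groups on their own, and the difference of changes over the 13 libraries. A prior count of 2 was added for log2 CPM. The steps were tested on simulated data. Gene positions came from GENCODE M21 (23651 genes, 96.9%, matched by symbol).

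The Ms4a genes and all gene lists were chosen with earlier results of these data known. Genes named besides them were the rest of the family, neighbours within 300 kb, *Foxp3*, *Tnfrsf18* and, for each Ms4a gene, the 3 genes of highest Pearson's r. DESeq2 1.42.0, its size factors, no filter, only the compared groups, a replicate block, summed paralogs and dropping each library were tried as alternatives. A second gene list is not reported here.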

Additional observations from a re-analysis of the deposited data

Results flagged for a closer look

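The change from resting to activated “wannabes” and the change from control to rescued Treg cells were compared by the test of the difference itself (edgeR's quasi-likelihood test). They differed for 5 genes among the tested genes of the family, *Foxp3* and *Tnfrsf18*. These were 2 of the 5 Ms4a genes described, 2 of the 5 other tested genes of the family, and *Foxp3*. Of all 15201 genes tested, 1.53% were called. The genes of highest likeness were not looked at in this way, and the interferon list is given above. The difference of log2 changes was 1.06 for *Ms4a4b*, 3.00 for *Ms4a4c*, -2.90 for *Tmem176a*, -2.97 for *Tmem176b* and -2.55 for *Foxp3* (adjusted p = 0.0205, 0.00314, 0.0273, 0.0214 and 0.000638). The *Tmem176a* and *Tmem176b* differences were not called when activated replicate 1 or 2 was dropped (adjusted p 0.122 to 0.163), nor was *Tmem176a* without control replicate 1 or 3, rescued replicate 1 or 2 or resting replicate 1 (0.0534 to 0.0673), or *Tmem176b* without control replicate 1 (0.0502). Sex, age, agent, genotype (the *Foxp3* allele included) and cell type differ between the experiments and cannot be told apart.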

How the results depend on the processing

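DESeq2 called more genes than edgeR: 1195 in rescued against control Treg cells, 3751 in control Treg cells against “wannabes”, 3316 in rescued Treg cells against “wannabes”, 3786 in activated against resting “wannabes” and 792 in the difference of changes, against 343, 2416, 2105, 2958 and 233. Of the 5 Ms4a genes it called 4 in rescued against control Treg cells (*Ms4a6c* gained), 3 in control Treg cells against “wannabes”, 2 in rescued Treg cells against “wannabes” (*Ms4a4c* and *Ms4a6c*), 3 in activated against resting “wannabes” (*Ms4a6c* and *Ms4a6d* gained) and 3 in the difference of changes (*Ms4a6b* gained). In rescued against control Treg cells 612 genes were called with no filter on low counts and 580 with only these groups in the fit. The cause of these shifts was not tested. When each library was dropped in turn, the genes called ranged from 114 to 598 in rescued against control Treg cells, 1549 to 2423 in control Treg cells against “wannabes”, 1570 to 1959 in rescued Treg cells against “wannabes”, 751 to 3215 in activated against resting “wannabes” and 44 to 430 in the difference of changes; the Ms4a genes called ranged, in the same order, from 1 to 3, 3 to 4, 0 to 1, 0 to 2 and 1 to 3. Deviations of libraries of the same number from their group means had r of -0.0292 to 0.0845. No r of differently numbered libraries was taken beside these, so they cannot decide whether the numbers pair the libraries. With the replicate block 2 Ms4a genes were called in activated against resting “wannabes”, *Ms4a4b* was called in control Treg cells against “wannabes” (adjusted p = 0.0484) and *Ms4a6b* was not in rescued against control Treg cells (0.0545). With the Ms4a6 copies summed, the value standing for *Ms4a6d* in control Treg cells against “wannabes” turned to 0.71, since *Ms4a6b* holds most of that sum. The likeness of *Ms4a4c* and *Usp18* turned to -0.11 over female libraries only. Dropping libraries for the interferon list and the rest of the family was added after seeing the data. Of the 5 Ms4a genes *Ms4a6d* had the fewest reads, with 98 to 350 a library.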
